A study of Homo sapiens with 16 samples.

Results

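Immunoglobulin-type adhesion molecules and selectins were followed as a set of 59 named genes, taken from a list by symbol, out of 19974 protein-coding genes on chromosomes 1 to 22 and X. They fall into 10 families, from the L1 and NCAM families through contactins, IgLONs, KIRRELs, teneurins, nectins and CADMs to junctional molecules, integrin ligands, leukocyte and epithelial surface molecules, and the selectins with SELPLG and CD44. The cells were TKO cells, derived from the KMS-11 multiple myeloma line and labelled as plasma cells of genotype KMS-11 WHSC1(+/-), and WHSC1 is the older name of NSD2, which methylates H3K36. The 4 groups, all of that genotype, were plain TKO cells, for which no form is named, and TKO cells labelled with wild type NSD2 (WT), with the D1240A form or with the F1295A form, each named for its substitution. The sources used here do not give the vector, its promoter or whether each group is 1 clone. The series title ties the C-terminal part of NSD2 to cell adhesion genes. Of the 16 samples, each form had 2 for H3K27me3, 1 for H3K4me3 and 1 for IgG, profiled by ChIPmentation, in which a transposase tags immunoprecipitated chromatin. The values were 8 peak lists, 1 per form and mark, because both H3K27me3 samples of a form share 1 list. With 1 list per form there is no replicate spread, so every difference below is a difference between lists, without a test.

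Members of the immunoglobulin superfamily bind through stacked extracellular domains to a like molecule, to a relative, or to an integrin on the neighbouring cell, and selectins bind sugars carried by ligands such as SELPLG. In the bone marrow, plasma cells and myeloma cells use such contacts, together with integrins and CD44, to hold to stroma and endothelium. H3K27me3 is deposited by Polycomb repressive complex 2 and lies over silent genes, often as broad domains, whereas H3K4me3 marks the start of active and poised genes. H3K36 methylation, the product of NSD2, is known to hinder Polycomb repressive complex 2.

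The promoters of 6 members with a mark at a gene end in some forms and not in others are shown first, 4 for H3K27me3 and 2 for H3K4me3. Each is the stretch of 250 bases that ends just before the transcription start of the first RefSeq entry (GRCh38.p14), read 5′ to 3′ on the strand of the gene, with every CG in capitals because CpG-rich DNA is where both marks are commonly found. For L1CAM that start lies 10.2 kb inside the RefSeq record, and for CADM4 2.13 kb, so these stretches are not at a gene end. L1CAM (chrX:153875945-153876194, minus strand), CEACAM1 (chr19:42528482-42528731, minus strand), CADM4 (chr19:43639851-43640100, minus strand) and TENM4 (chr11:79441031-79441280, minus strand) are printed beside NECTIN2 (chr19:44846047-44846296, plus strand) and ALCAM (chr3:105366659-105366908, plus strand).
L1CAM: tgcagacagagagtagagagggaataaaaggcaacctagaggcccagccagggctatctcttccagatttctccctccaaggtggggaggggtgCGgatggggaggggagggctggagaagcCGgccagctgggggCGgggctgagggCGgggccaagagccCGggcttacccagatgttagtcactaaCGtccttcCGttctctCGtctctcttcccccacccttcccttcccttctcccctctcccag
CEACAM1: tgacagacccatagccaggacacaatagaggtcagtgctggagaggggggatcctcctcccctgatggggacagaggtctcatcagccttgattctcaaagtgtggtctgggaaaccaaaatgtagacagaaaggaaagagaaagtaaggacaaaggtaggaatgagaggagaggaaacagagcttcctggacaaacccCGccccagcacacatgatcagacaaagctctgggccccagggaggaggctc
NECTIN2: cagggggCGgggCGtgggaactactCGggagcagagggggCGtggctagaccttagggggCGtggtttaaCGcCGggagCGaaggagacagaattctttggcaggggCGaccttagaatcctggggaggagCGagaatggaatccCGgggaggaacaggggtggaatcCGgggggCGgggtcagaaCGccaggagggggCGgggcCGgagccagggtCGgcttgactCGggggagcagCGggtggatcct
CADM4: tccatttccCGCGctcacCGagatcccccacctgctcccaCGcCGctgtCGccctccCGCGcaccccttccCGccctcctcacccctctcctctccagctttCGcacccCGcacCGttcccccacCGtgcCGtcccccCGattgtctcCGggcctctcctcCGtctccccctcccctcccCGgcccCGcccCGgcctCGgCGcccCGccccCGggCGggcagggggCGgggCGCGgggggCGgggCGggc
TENM4: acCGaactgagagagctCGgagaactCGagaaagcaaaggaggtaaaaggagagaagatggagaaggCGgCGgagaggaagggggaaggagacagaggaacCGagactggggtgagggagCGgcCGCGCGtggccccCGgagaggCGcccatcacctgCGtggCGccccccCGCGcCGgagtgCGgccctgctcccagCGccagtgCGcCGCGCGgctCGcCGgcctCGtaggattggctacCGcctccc
ALCAM: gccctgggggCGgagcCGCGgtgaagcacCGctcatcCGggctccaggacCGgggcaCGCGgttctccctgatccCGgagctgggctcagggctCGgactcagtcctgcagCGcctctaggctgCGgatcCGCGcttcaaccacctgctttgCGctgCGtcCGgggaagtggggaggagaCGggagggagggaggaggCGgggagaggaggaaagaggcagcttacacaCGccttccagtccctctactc

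These 6 sequences differed widely in CpG. The CEACAM1 stretch held 1 CpG and that of L1CAM 8, against 19 in NECTIN2, 20 in ALCAM, 27 in TENM4 and 30 in CADM4. TATAAA, searched on both strands, was in none of the 6. GGGCGG, the core of a GC box, occurred on either strand 7 times in CADM4, 3 in NECTIN2, 2 in L1CAM, 1 in CEACAM1 and 1 in ALCAM. CCAAT was found once, in TENM4. CANNTG, an E-box pattern that reads the same on both strands, was found 2 times in L1CAM and 1 time each in CEACAM1, CADM4, TENM4 and ALCAM. Among the 15812 protein-coding genes with a promoter in the table, in windows of 300 bases that also take in 50 bases after the start, 9.64% held TATAAA, 58.5% GGGCGG, 36.3% CCAAT and 64.5% CANNTG.

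The WT peaks lay differently on the 6 stretches. All 250 bases of NECTIN2 were inside the H3K27me3 peaks of TKO, WT and D1240A and inside the H3K4me3 peaks of WT, D1240A and F1295A. The TENM4 stretch was inside H3K27me3 peaks in all 4 forms and inside H3K4me3 peaks in WT and F1295A only. For L1CAM, 106 bases were inside the H3K27me3 peak of WT and 0 in the other forms. The CADM4 stretch was wholly inside H3K27me3 peaks in TKO, WT and F1295A and outside them in D1240A. In CEACAM1 the TKO peak stopped inside the gene, so 0 of the printed bases were covered.

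Across the 8 lists, peak numbers were 5881 for TKO, 3790 for WT, 2188 for D1240A and 2083 for F1295A with H3K27me3, and between 7396 and 8239 with H3K4me3. Covered length ran from 32.0 Mb in D1240A to 66.6 Mb in TKO for H3K27me3 and from 21.95 Mb to 34.7 Mb for H3K4me3. The depth behind the lists is unknown, and a longer list cannot be told apart from a deeper sample. Of 10 plasma cell markers, 6 to 8 per form had H3K4me3 at a gene end, where 39.9% to 44.5% of all genes did, and 1 or 2 had H3K27me3. IRF4, PRDM1, XBP1, TNFRSF17, MZB1 and CCND2 had H3K4me3 in all 4 forms, and POU2AF1 in WT, D1240A and F1295A. CD38 had no peak, and SLAMF7 had no H3K4me3 but H3K27me3 at an end in TKO. At SDC1, the gene of the plasma cell marker CD138, every form listed H3K27me3, and WT and F1295A listed H3K4me3 too. Of 10 T, NK and myeloid and 7 stromal and endothelial markers, 0 had H3K4me3 in any form. H3K27me3 was at 1 to 3 of each list per form, where 5.36% to 10.0% of all genes had it.

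A gene counted as marked when its RefSeq record had a peak no more than 1 kb from the lower or the higher end. H3K27me3 was at 14 members (TKO), 16 (WT), 8 (D1240A) and 9 members (F1295A), where the marked shares of all protein-coding genes were 10.0%, 9.57%, 5.36% and 5.79%. As shares of the members these were 23.7%, 27.1%, 13.6% and 15.3%, above the share of all genes in every form. H3K4me3 was at 12, 16, 14 and 16 members in the same order, set against 39.9%, 43.6%, 41.6% and 44.5% of all genes. The member shares of 20.3%, 27.1%, 23.7% and 27.1% were below those of all genes in every form. With the 2083 strongest H3K27me3 peaks taken from every list, the counts were 7, 13, 7 and 9 in the same order, with TKO at the level of the substituted forms. That number is the whole F1295A list, and shares of all genes were not computed for this setting.

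**Figure D1:**
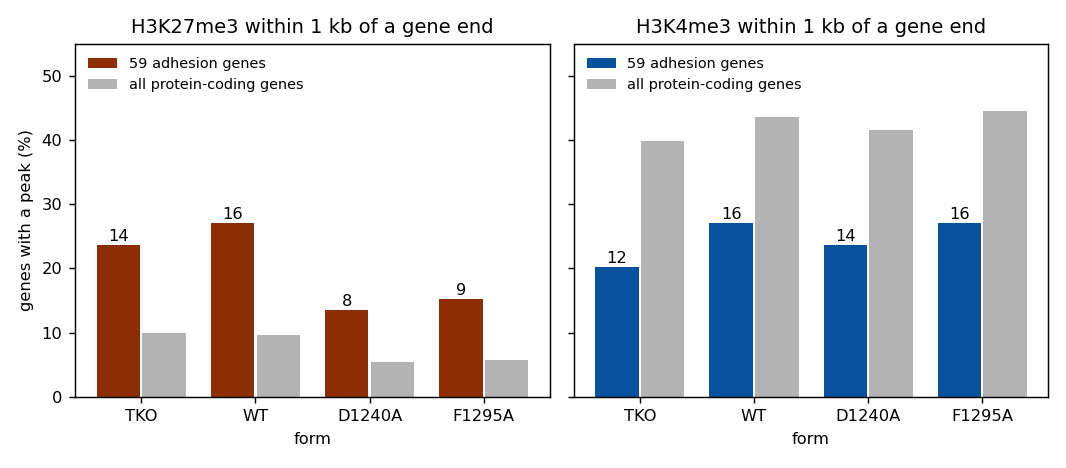
Bars give the percentage of genes with a peak within 1 kb of a gene end in each form (horizontal axis), for the 59 adhesion genes (coloured, with the number of genes above) and for all protein-coding genes (grey). The members stand above all genes with H3K27me3 (14, 16, 8 and 9 members) and below them with H3K4me3 (12, 16, 14 and 16 members).

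Read together, 27 members had a peak of either mark at an end in at least 1 form. H3K27me3 alone was seen at 11 members, 18.6% of the set against 9.39% of all genes. H3K4me3 alone was seen at 10 members, 16.9% against 43.0%. Both marks, in the same or different forms, were seen at 6 members, namely F11R, ICAM4, ICAM5, NECTIN2, NECTIN4 and TENM4, 10.2% against 2.42%. In 26 members, 44.1% against 35.8% of all genes, no peak of either mark lay in the record or within 10 kb of its ends in any list. Members were long genes, with a median record of 82.9 kb against 24.2 kb for all genes, and the 32 members with neither mark at an end had a median of 314 kb against 21.5 kb for all such genes. Record length can change how much of a gene the end windows see, and its part in these counts was not tested.

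**Figure D2:**
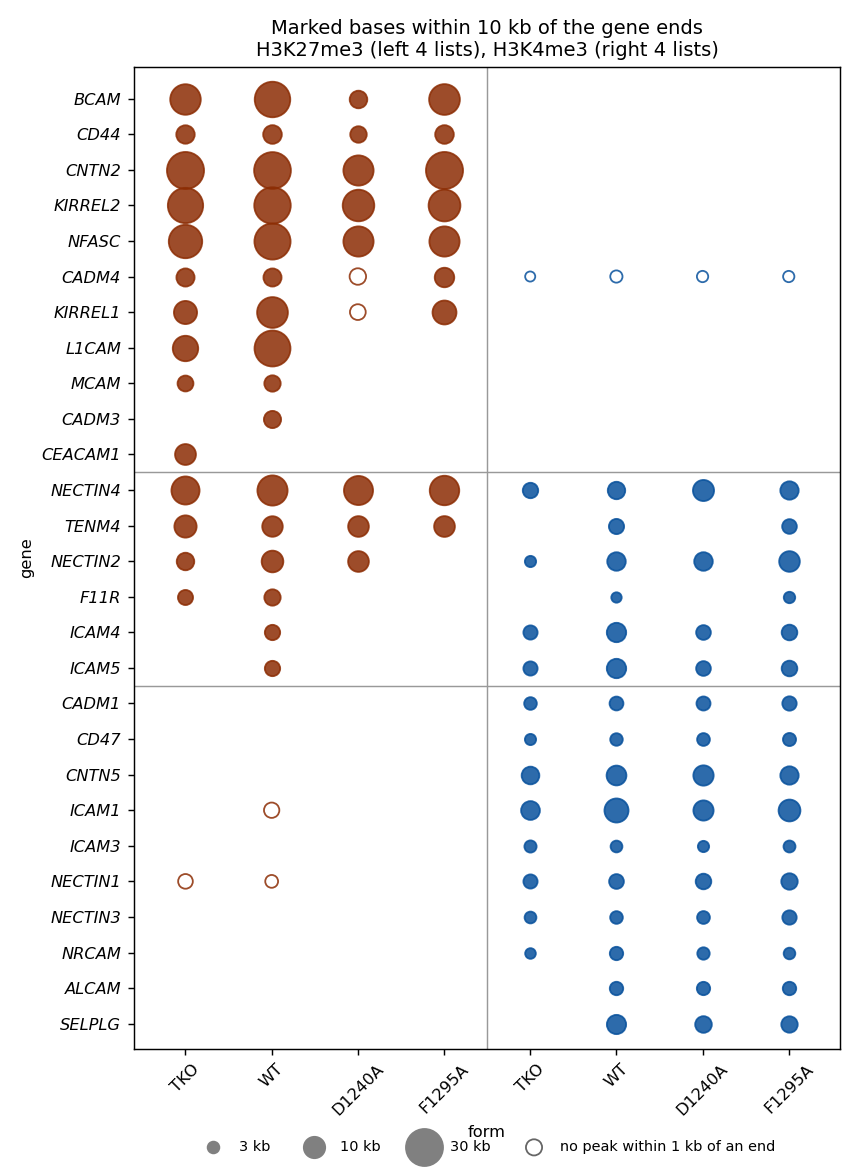
Each circle is 1 of the 27 marked members (rows) in 1 list (columns, 4 forms for each mark), with an area in proportion to the kilobases marked within 10 kb of the gene ends. Filled circles have a peak within 1 kb of an end and open circles do not; the H3K27me3 columns thin out in D1240A and F1295A, from 16 filled circles in WT to 8 and 9.

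In the L1 family the mark that varied was H3K27me3. L1CAM, a neuronal molecule that binds itself across cells (chrX:153861514-153886173), had 14.2 kb marked within 10 kb of its ends in TKO, 28.3 kb in WT, 0 kb in D1240A and 0 kb in F1295A. Here and below such lengths count every peak within 10 kb of either end, and the distance to the nearest peak is from the nearer end unless another point is named. TKO and WT were therefore the forms with the mark, and in D1240A and F1295A the nearest H3K27me3 peak was 219 kb and 217 kb away. The peaks took 53.7% of the record in TKO and 94.9% in WT. In TKO the peak reached the lower end, and in WT a peak of 18.7 kb and another of 14.2 kb reached both ends and the start region printed above. The TKO and WT peaks stood at percentiles 78.8 and 73.9 of their lists, where the percentile is the place by total signal and 100 is the strongest; places in lists of different length show no change.

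NFASC and CNTN2 are neighbours on chromosome 1 (chr1:204828652-205022822 and chr1:205042949-205078289) and shared 1 broad H3K27me3 peak. NFASC encodes neurofascin, which organises the axon initial segment, and CNTN2 encodes a contactin anchored to the axon membrane. The shared peak measured 117 kb in TKO, 146 kb in WT, 106 kb in D1240A and 147 kb in F1295A and stood at percentile 99.7, 99.6, 98.9 and 99.2 of its list. By total signal it is among the strongest H3K27me3 peaks of every form. By width it stood at percentile 99.8, 99.8, 99.7 and 99.7. Total signal is summed over a peak and can grow with its width, and signal per base was not ranked. NFASC and CNTN2 count separately in each H3K27me3 total, and in D1240A and F1295A both rest on this peak alone. Around CNTN2, 30.2, 29.7, 20.0 and 30.2 kb were marked in TKO, WT, D1240A and F1295A, and the D1240A peak stopped before the far end of the gene, covering 70.8% of the record. The start of NFASC, at the other side of the gene, had a separate weak peak in TKO (percentile 1.67) and WT (percentile 16.5) and none in D1240A or F1295A. NRCAM, a relative of L1CAM, had only H3K4me3, with 2.499, 3.93, 3.38 and 2.98 kb at its start in TKO, WT, D1240A and F1295A. CHL1, NCAM1 and NCAM2 had no peak of either mark in the record or within 10 kb; NCAM1 encodes CD56, a surface molecule often measured in myeloma.

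Among contactins, DSCAMs and sidekicks, which guide neurite and synapse pairing, CNTN5 was the only member with H3K4me3 at an end, and it had it in all 4 forms. The marked length at its start was 6.87 kb in TKO, 8.62 kb in WT, 9.05 kb in D1240A and 7.38 kb in F1295A, in a record of 1338 kb. A second H3K4me3 peak inside CNTN5 was listed in WT, D1240A and F1295A and not in TKO. SDK2, which encodes sidekick-2, had H3K27me3 inside the gene and none at its ends. It held 7 peaks and 48.2 kb in TKO, 8 peaks and 91.5 kb in WT, 3 peaks and 27.7 kb in D1240A, and 4 peaks and 40.6 kb in F1295A. DSCAML1 held 3 H3K27me3 peaks in TKO, together 20.3 kb, and 0 in the other forms. CNTN1, CNTN3, CNTN4, CNTN6, DSCAM and SDK1 had no peak of either mark in the record or within 10 kb. The 4 IgLONs, OPCML, NTM, LSAMP and NEGR1, which are lipid-anchored neuronal molecules, had none either.

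All 3 KIRREL genes, which encode relatives of nephrin found at slit diaphragms and synapses, carried H3K27me3 in some list and H3K4me3 in none. KIRREL2 (chr19:35851399-35867136) was marked at both ends in all 4 forms, with 27.3 kb in TKO, 29.2 kb in WT, 21.9 kb in D1240A and 22.2 kb in F1295A, and its peak also reached ends of APLP1 and NPHS1. KIRREL1 (chr1:157993645-158100262) was called at its lower end, by peaks of 5.94 kb in TKO, 15.5 kb in WT and 14.8 kb in F1295A, and the nearest D1240A peak to that end was 71.4 kb away. D1240A had H3K27me3 towards the other end of the gene, 4.555 kb from it, as TKO (4.21 kb) and WT (3.95 kb) had. The percentile at the lower end was 5.74 in TKO, 55.5 in WT and 8.57 in F1295A, so outside WT these were low in their lists, and with the stronger 50% of peaks WT alone was called. KIRREL3 had 2 peaks inside the gene in TKO, 1 in WT and 0 in D1240A and F1295A, where the nearest peak to its ends was 1010 kb away.

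Teneurins are large transmembrane proteins that join synapses. TENM4 (chr11:78652829-79441030) had H3K27me3 over its start in every form, with 10.9 kb in TKO, 9.23 kb in WT, 9.42 kb in D1240A and 9.46 kb in F1295A, a narrow range. H3K4me3 at the same start was listed in WT (5.08 kb) and F1295A (4.74 kb), and was 0 kb in TKO and D1240A, where the nearest H3K4me3 peak to that start was 865 kb away in both. Both H3K4me3 peaks lay wholly inside the H3K27me3 peak of their form, at percentile 18.8 of the WT list and 0.492 of the F1295A list. In F1295A the H3K4me3 peak thus stood at the bottom of its list, and with equal peak numbers WT alone was called. TENM3 had H3K4me3 at its first RefSeq start, 696 kb inside the record, in all 4 forms, and at a second start 1001 kb inside it in WT, D1240A and F1295A and not in TKO. TENM2 had no peak of either mark in the record or within 10 kb.

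Nectins pair with each other at adherens junctions and bind afadin inside the cell, and CADMs are related molecules of epithelia, nerve and immune cells. Of these 9 members, TKO had H3K27me3 at 3, WT at 4, D1240A at 2 and F1295A at 2, and H3K4me3 was at 5 in every form. Over all genes the shares were 5.36% to 10.0% with H3K27me3 and 39.9% to 44.5% with H3K4me3. NECTIN2 (chr19:44846297-44889223), a ligand of immune receptors, had an H3K27me3 peak over its start of 6.75 kb in TKO, 6.78 kb in WT, 9.46 kb in D1240A and none in F1295A, at percentile 43.1, 51.1 and 9.21 in the 3 forms with a peak. WT had another peak of 4.81 kb inside the gene. With equal peak numbers the TKO peak was not called, and with the stronger 50% WT alone was. Its start had H3K27me3 alone in TKO, both marks in WT and D1240A (overlapping by 2.14 kb and 2.54 kb), and H3K4me3 alone in F1295A. The TKO peak of H3K4me3 counted for NECTIN2 lay at the far end, which it shares with TOMM40. The H3K4me3 peak at the start was 3.52 kb in WT, 3.82 kb in D1240A and 4.51 kb in F1295A, at percentile 13.0, 16.5 and 24.1.

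NECTIN4 (chr1:161070998-161089558), a surface protein of epithelia, had H3K27me3 over its start in all 4 forms, 17.3 kb in TKO, 20.0 kb in WT, 18.6 kb in D1240A and 19.1 kb in F1295A. The H3K4me3 peaks counted for it measured 3.26, 4.07, 6.48 and 4.81 kb in the same order and lay at its far end, also an end of ARHGAP30, 4.33 to 9.35 kb from the H3K27me3 peak. NECTIN1, NECTIN3 and CADM1, all cell contact molecules of epithelia and nerve, had H3K4me3 at 1 end in all 4 forms and no H3K27me3 there. In the order TKO, WT, D1240A and F1295A the marked length was 4.405, 4.799, 5.35 and 5.93 kb for NECTIN1, 3.06, 3.53, 3.615 and 4.52 kb for NECTIN3, and 3.52, 4.21, 4.33 and 4.52 kb for CADM1. TKO was the lowest and F1295A the highest form in each of the 3 genes, which is also the order of the median peak width of the whole lists (2.70, 3.29, 3.35 and 3.701 kb). CADM4 (chr19:43622368-43641984) had 7.23 kb of H3K27me3 in TKO, 7.18 kb in WT, 5.95 kb in D1240A and 8.35 kb in F1295A. Its RefSeq start lies 2.13 kb inside the record, and all 4 forms had a peak within 1 kb of that start, and with a window of 2.5 kb D1240A was called at the gene end too. CADM3 (chr1:159171615-159203313) was marked by H3K27me3 in WT only, by a peak of 6.49 kb at percentile 21.0 that lay at its far end and also at an end of ACKR1; it was not called with equal peak numbers. CADM2 and PVR, which encodes the poliovirus receptor, had no peak of either mark in the record or within 10 kb.

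**Figure D3:**
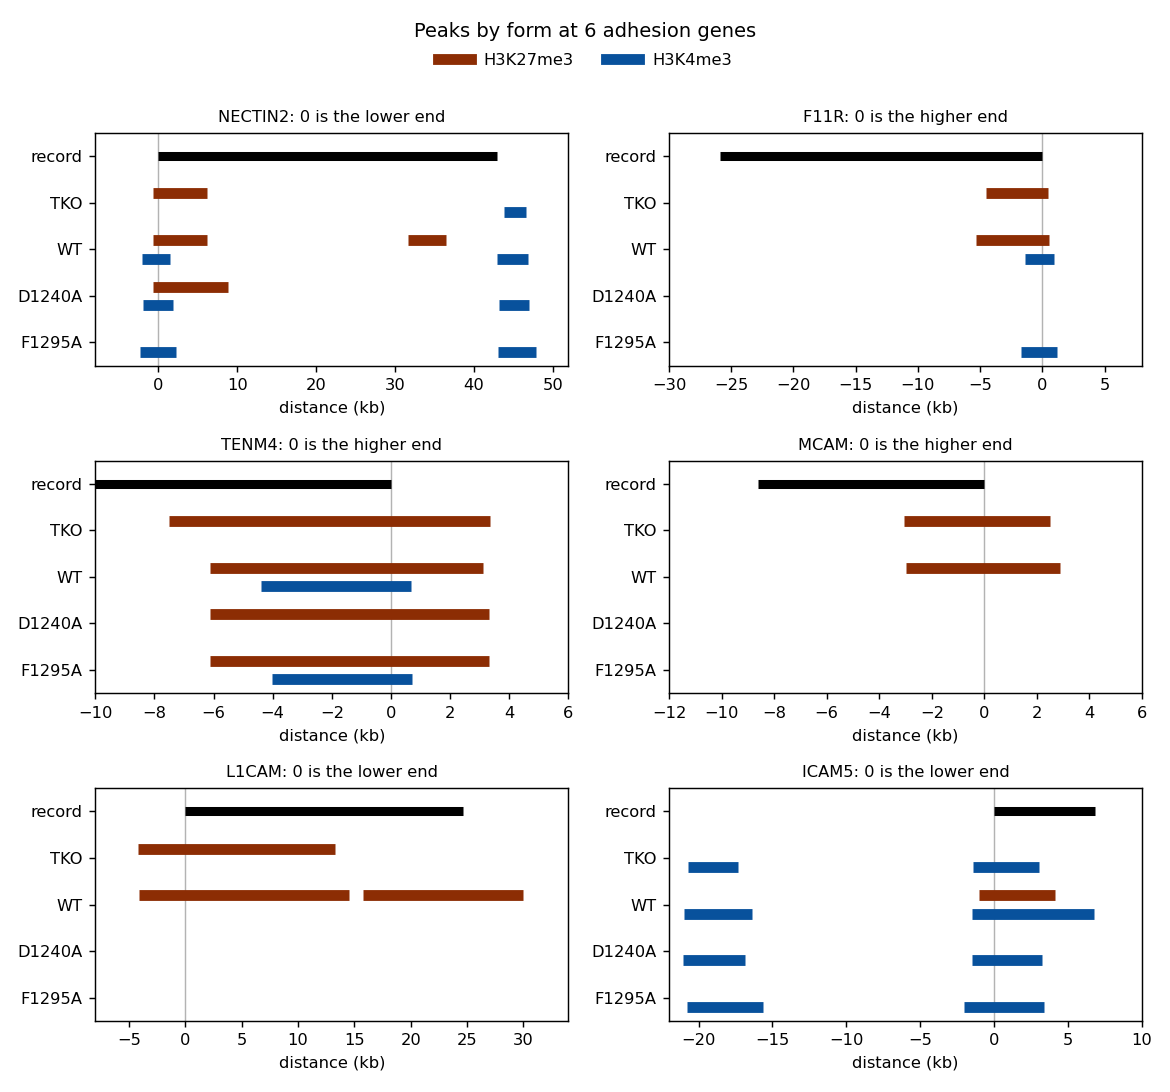
Peaks of H3K27me3 (brown) and H3K4me3 (blue) in each form (rows) at 6 members, with the RefSeq record in black, along the distance in kb from the record end of lower or higher coordinate named above each panel. NECTIN2 and F11R have at 0 a blue bar without a brown one in F1295A, MCAM and L1CAM have brown bars in TKO and WT only, and TENM4 has a brown bar in every form; the ICAM5 panel takes in ICAM4 and the start of ICAM1 to its left.

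Junctional and vascular members showed both kinds of change. F11R (chr1:160995211-161021152), which encodes the tight junction molecule JAM-A, had 5.005 kb of H3K27me3 in TKO, 5.86 kb in WT and 0 kb in D1240A and F1295A. H3K4me3 at the same end was 0 kb in TKO, 2.37 kb in WT, 0 kb in D1240A and 2.87 kb in F1295A. The 4 forms thus gave 4 states, H3K27me3 alone in TKO, both marks with 1.91 kb of overlap in WT, neither in D1240A, and H3K4me3 alone in F1295A. The H3K4me3 peaks were weak, at percentile 9.93 in WT and 10.1 in F1295A. These states were not kept: with equal peak numbers F11R had H3K27me3 in 0 forms and H3K4me3 in WT only, and with the stronger 50% of peaks it had neither mark in any form.

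MCAM (chr11:119308529-119317130), which encodes the endothelial and melanoma molecule CD146, had H3K27me3 over its start in TKO (5.54 kb, percentile 17.4) and WT (5.88 kb, percentile 46.7). In D1240A and F1295A it had 0 kb, and the nearest peak was 417 kb away in both. With equal peak numbers the TKO call was lost, and with the stronger 50% of peaks the WT call too. BCAM (chr19:44809059-44821421), a laminin receptor of erythrocytes and epithelia, was called in all 4 forms with 20.5 kb in TKO, 27.7 kb in WT, 6.79 kb in D1240A and 20.7 kb in F1295A. D1240A was the low form, and its peak left the BCAM start without H3K27me3. ALCAM, a ligand of CD6 on T cells, had no H3K27me3, and its H3K4me3 was 0 kb in TKO, 3.96 kb in WT, 3.90 kb in D1240A and 3.96 kb in F1295A. In TKO the nearest H3K4me3 peak to ALCAM was 1945 kb away, and the percentile in the other forms was 31.1, 5.89 and 32.2, so with the stronger 50% of peaks none of the 3 was called. PECAM1, the endothelial molecule CD31, had 1 H3K27me3 peak inside the gene in TKO, and JAM2, JAM3 and ESAM had no peak of either mark in the record or within 10 kb.

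The integrin ligands had H3K4me3 at an end of 4 of 6 members in every form, the same 4, where 39.9% to 44.5% of all genes had it. ICAM1, the main ligand of the leukocyte integrin LFA-1, had 7.75 kb in TKO, 12.7 kb in WT, 8.96 kb in D1240A and 10.5 kb in F1295A within 10 kb of its ends, part of it from the neighbouring ICAM4 and ICAM5. ICAM4, a red cell antigen (chr19:10286955-10288520), and ICAM5, a neuronal molecule (chr19:10289952-10296778), shared 1 H3K4me3 peak of 4.43 kb in TKO, 8.25 kb in WT, 4.76 kb in D1240A and 5.39 kb in F1295A. In WT alone they also shared an H3K27me3 peak of 5.15 kb at percentile 46.0, which lay wholly inside the H3K4me3 peak, and the nearest H3K27me3 peak to ICAM5 was 206, 250 and 250 kb away in TKO, D1240A and F1295A. ICAM4 and ICAM5 therefore count as 2 members in each total but rest on 1 peak. The H3K4me3 peak lay at the far end of ICAM4, whose start had H3K4me3 within 1 kb in F1295A only. With the start alone, ICAM1 and ICAM5 were the integrin ligands called in all 4 forms. ICAM3, another ligand of LFA-1, had 3.26, 3.06, 2.79 and 3.15 kb of H3K4me3 in TKO, WT, D1240A and F1295A, from peaks at its lower end that also reached an end of RAVER1. The first of its 3 RefSeq starts, at the higher end, had no mark, whereas H3K4me3 was within 1 kb of the second start in TKO, WT and F1295A and of the third in all 4 forms. ICAM2 and VCAM1, the endothelial ligand of integrin α4β1, had no peak at an end in any list.

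Of the 6 leukocyte and epithelial surface molecules, CD47, the ligand of SIRPA on macrophages, had H3K4me3 at its start in all 4 forms, with 2.76 kb in TKO, 3.46 kb in WT, 3.601 kb in D1240A and 3.78 kb in F1295A. CEACAM1, a molecule of epithelia and leukocytes that binds itself (chr19:42507306-42528481), had H3K27me3 in TKO only, by a peak of 9.57 kb at percentile 45.5 that was not called with equal peak numbers, with the nearest peak 56.5 kb away in WT. CD2, CD58, CD99 and EPCAM had no peak of either mark in the record or within 10 kb. CD44, the hyaluronan receptor (chr11:35139171-35232402), had H3K27me3 over its start in all 4 forms, 7.45 kb in TKO, 7.64 kb in WT, 5.98 kb in D1240A and 7.62 kb in F1295A, and H3K4me3 in none. Its percentile was 48.5, 40.4, 4.27 and 10.7 in TKO, WT, D1240A and F1295A. With equal peak numbers CD44 was called in 1 form, F1295A, whose whole list that setting keeps, so its call could not be lost. With the stronger 50% of peaks CD44 was called in 0 forms. SELPLG, the ligand of the selectins known as PSGL-1 (chr12:108621895-108633894), had 0 kb of H3K4me3 in TKO, 8.13 kb in WT, 6.08 kb in D1240A and 5.92 kb in F1295A, at percentile 8.61, 3.61 and 14.1 in the 3 forms with a peak. With equal peak numbers F1295A alone was called. SELP and SELE, the selectins of platelets and endothelium, had no peak of either mark in the record or within 10 kb.

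The comparison of plain TKO with WT cells asked what the expression of wild type NSD2 changed. H3K27me3 was at 3 members in WT and not TKO, CADM3, ICAM4 and ICAM5, where 1.72% of all genes were in that state. ICAM4 and ICAM5 rest on 1 peak. It was at 1 in TKO and not WT, CEACAM1, where 2.17% were. As a share of what WT had, the 3 of 16 members stand beside 18.0% of all WT-marked genes. The 1 of 14 TKO-marked members stands beside 21.7% of all TKO-marked genes. With equal peak numbers the count in WT and not TKO was 6 and that in TKO and not WT 0. Shares of all genes were not computed for that setting. H3K4me3 was at 4 members in WT and not TKO, ALCAM, F11R, SELPLG and TENM4, 6.78% of the set against 4.09% of all genes. The opposite state held 0 members and 0.325% of all genes. When only the stronger 50% of each list was kept, the 4 became 1, which was NECTIN3 and none of the 4.

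D1240A and F1295A were each set against WT to ask what the substitutions changed. H3K27me3 was at 8 members in WT and not D1240A, CADM3, CADM4, F11R, ICAM4, ICAM5, KIRREL1, L1CAM and MCAM, 13.6% of the set against 4.34% of all genes. It was at 7 in WT and not F1295A, CADM3, F11R, ICAM4, ICAM5, L1CAM, MCAM and NECTIN2, 11.9% against 3.99%. The comparisons share the WT list, so their 6 common names are no separate evidence. In the other direction D1240A and F1295A each had 0 members, where 0.130% and 0.210% of all genes were called. As a share of what WT had, the 8 of 16 members not called in D1240A stand beside 45.3% of all WT-marked genes. The 7 of 16 not called in F1295A stand beside 41.7%, so both shares were near those of WT-marked genes at large. When the other form had to lack any peak within 10 kb, the counts were 6 for D1240A and 7 for F1295A. CADM4 and KIRREL1 had a D1240A peak within that distance. Without the 4 members in the 12 Mb of chromosome 1 from 150 Mb, KIRREL1, NECTIN4, CADM3 and F11R, both counts were 5.

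Fewer members differed in H3K4me3. It was at 2 members in WT and not D1240A, F11R and TENM4, where 2.30% of all genes were in that state, and at 0 in D1240A and not WT (0.285% of all genes). Between WT and F1295A it was at 0 members in either direction, with 0.716% of all genes in WT only and 1.59% in F1295A only. For both marks the F1295A and D1240A lists were also set against each other. H3K27me3 was at NECTIN2 in D1240A and not F1295A (0.601% of all genes) and at CADM4 and KIRREL1 in F1295A and not D1240A (1.03%). H3K4me3 was at 0 members in D1240A and not F1295A (0.240%) and at F11R and TENM4 in F1295A and not D1240A (3.12%). In D1240A the nearest H3K27me3 peak to the marked end was 2.15 kb away for CADM4 and 71.4 kb away for KIRREL1.

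The place of a peak in the WT list went with whether the member was called elsewhere. The 8 WT members missing in D1240A had a median percentile of 46.4 in the WT list, and the 8 that were called there 79.7. For F1295A the medians were 46.0 for the 7 missing and 73.7 for the 9 called. The same order held over all genes, with 45.9 against 85.1 for D1240A and 41.9 against 84.5 for F1295A. In the middle range of the WT list, from percentile 50 to 75, 3 of 6 members were missing in D1240A, where 45.8% of all genes there were, and none of the 4 members above 75 was, against 20.0%. With H3K4me3 the 4 members missing in TKO had a median of 14.4 and the 12 called there 62.2. L1CAM, at percentile 73.9, was the strongest WT member missing in D1240A and in F1295A.

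**Figure D4:**
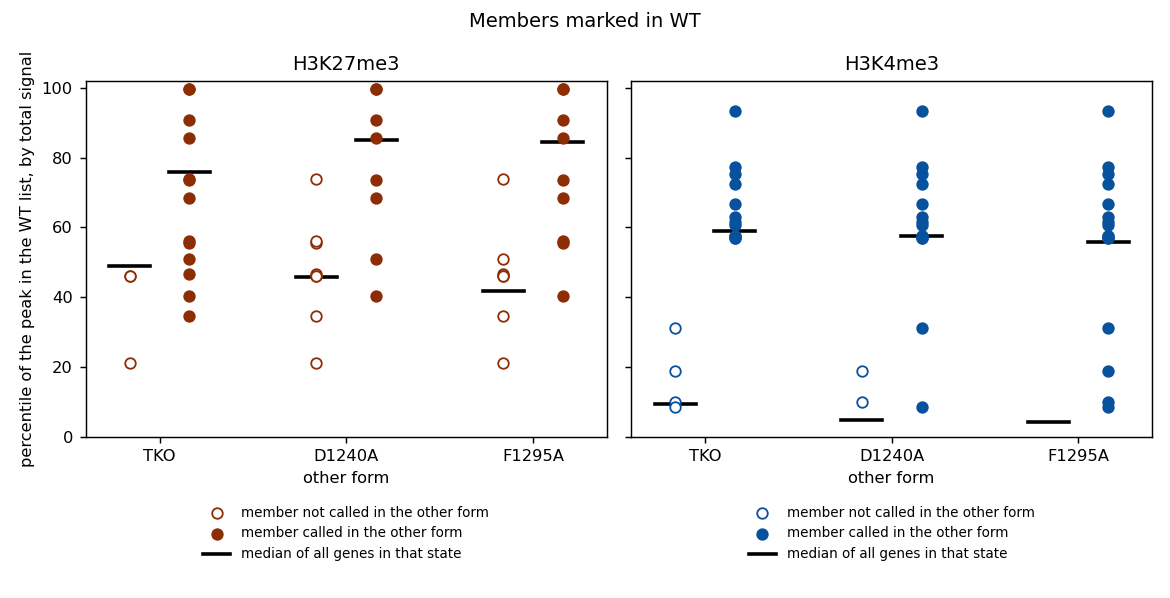
Each point is a member marked in WT, placed by the percentile of its peak in the WT list (vertical axis, 100 strongest) and by whether it was called (filled) or not called (open) in TKO, D1240A or F1295A. Open points sit at 73.9 or below with H3K27me3 and at 31.1 or below with H3K4me3, and the black bars are the medians of all genes in the same state.

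Restricting the calls to 1 kb around the RefSeq start was possible for the 42 members with a promoter entry. In the order TKO, WT, D1240A and F1295A, H3K27me3 was then at 10, 11, 6 and 6 members, against 6.69%, 6.596%, 3.63% and 3.85% of the 15812 genes with an entry. H3K4me3 was at 7, 10, 9 and 11 members, against 41.0%, 44.8%, 42.7% and 45.4%. Start regions that differed between forms in H3K27me3 were those of L1CAM, NFASC, NECTIN2, MCAM, BCAM, ICAM5 and CEACAM1. Those that differed in H3K4me3 were TENM4, NECTIN2, ALCAM and ICAM4. Among these 42, NECTIN2 was thus the only member whose start differed in both marks. F11R, which differed in both marks at 1 gene end, has no promoter entry and was not read here.

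For promoter CpG, members were classed by the marks at either gene end in any form, and these need not lie on the promoter counted. TENM3 is classed with neither mark though its start had H3K4me3 in all 4 forms. CADM3 and ICAM3 had no mark within 1 kb of the start used. In the 300-base windows the median number of CpG was 23 for the 9 members with H3K27me3 alone, 26 for the 5 with both marks, 30 for the 7 with H3K4me3 alone and 13 for the 21 with neither. Over all genes the medians were 13, 27, 28 and 12. The 9 members with H3K27me3 alone ranged from 3 to 42, with a median above that of all genes of the class. All 42 members had a median of 22.5, and all genes 22, close to each other.

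**Figure D5:**
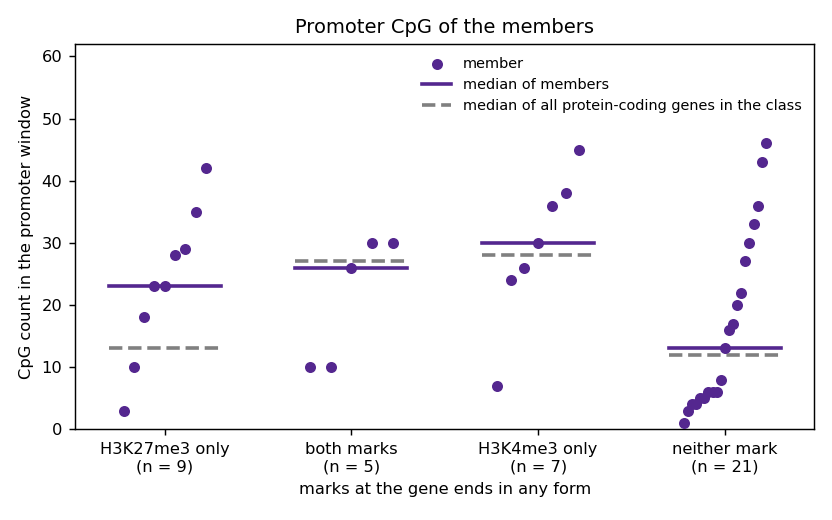
CpG in the promoter window of 42 members (points), grouped by the marks at their gene ends in any form. Solid bars are medians of the members (23, 26, 30 and 13) and dashed bars those of all genes of the class (13, 27, 28 and 12).

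Members were unevenly placed on the chromosomes. Of the 10 on chromosome 19, 7 had H3K27me3 in at least 1 form, where 17.0% of all genes of that chromosome did. Of the 12 on chromosome 1 it was 6, against 19.2%, and of the 13 on chromosome 11 it was 3, against 13.0%. NFASC and CNTN2 on chromosome 1 share 1 peak, as do ICAM4 and ICAM5 on chromosome 19. On chromosome 3 it was 0 of 9, against 7.22%. H3K4me3 in at least 1 form was at 3 of those 9, ALCAM, CD47 and NECTIN3, against 46.4% of all genes there. On chromosomes 1, 11 and 19 it was at 2, 4 and 5 members, against 45.7%, 38.8% and 44.0%.

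The partners of these molecules, 34 genes for integrin receptors, immune receptors, the selectin axis and cytoplasmic linkers, were read in the same way. In the order TKO, WT, D1240A and F1295A, H3K27me3 was at 5, 4, 3 and 3 of them, where 10.0%, 9.57%, 5.36% and 5.79% of all genes had it. H3K4me3 was at 10, 12, 12 and 13 in the same order, where 39.9%, 43.6%, 41.6% and 44.5% of all genes had it. Among the 8 integrin receptor genes, ITGA4, ITGB1 and ITGB7 had H3K4me3 in all 4 forms, and ITGAL, the α chain of LFA-1, in WT, D1240A and F1295A (5.68, 6.42 and 6.44 kb). In TKO it had 3.01 kb within 10 kb of its ends and no call. ITGB2, the β chain that pairs with ITGAL, had H3K27me3 in all 4 forms. Of the 10 immune receptors 0 had H3K4me3, CD6 had H3K27me3 in all 4 forms, PILRA in TKO, WT and D1240A (13.0, 13.0 and 9.94 kb, with 7.17 kb near its ends and no call in F1295A), and SIRPA in TKO only (9.897 kb). In the selectin axis GCNT1, ST3GAL4, TPST2 and CHST2, which build or sulphate selectin ligands, had H3K4me3 in all 4 forms, and FUT7, which fucosylates them, in F1295A only (5.10 kb, percentile 4.42). Among linkers, RDX, which encodes radixin, had H3K4me3 in WT, D1240A and F1295A (2.84, 1.99 and 2.52 kb). ANK3, an ankyrin that binds the L1 family, had H3K27me3 in TKO, WT and F1295A (12.1, 8.46 and 8.83 kb) and 0 kb in D1240A.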

How the data were processed

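ChIPmentation peak lists of H3K27me3 (2 samples per form) and H3K4me3 (1 sample per form) were read for 4 forms of TKO cells, and IgG samples were not analysed here. Per the submitters' processing notes, the tools were SEACR 1.3, Bowtie2 2.4.5, Trimmomatic 0.36 and FastQC 0.11.4, with GRCh38 as the build. How peaks were called (mode, control, threshold) and how the 2 H3K27me3 samples of a form were combined is not given in the sources used here. The deposited lists give the position of each peak and its total signal, as the authors' peak caller wrote it, and that signal was used only to place peaks within a list. Read totals are not in the lists, so depth is unknown.

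Gene records and promoters came from RefSeq (GRCh38.p14). The record table gives no strand, so both ends of a record were read, with an overlap of at least 1 bp with the window of 1 kb, and the start was taken from the first promoter entry of a gene, which 42 of 59 members and 15812 genes had; 14 members had more than 1 entry. Marked bases were counted within 10 kb of either end. Values in every form are given for members whose call differed between forms or that had both marks in 1 form or 1 mark in all 4, other members are given by counts, and partner genes with values only where the call differed. Promoters are those of members with a differing call and an entry, most marked bases first. With 1 list per form no test was run, and shares of all protein-coding genes stand beside the counts of members per list and per pair of forms. The members, the lists and the alternatives were chosen with earlier results of these data known. Steps ran in Python 3.11.15 with numpy 2.4.6, pandas 2.3.3 and matplotlib 3.10.9 and were tested on simulated data. The alternatives took equal peak numbers, the stronger 50% of peaks, a window of 2.5 kb, the whole record, the start alone, the set without 12 Mb of chromosome 1, or asked that the other form lack any peak within 10 kb.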

Additional observations from a re-analysis of the deposited data

How the results depend on the processing

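Depth is unknown and 1 list stands for each form and mark, so a missing call can be a peak that fell short of the threshold. No paired analysis was possible because both H3K27me3 samples of a form stand in 1 list and H3K4me3 has 1 sample per form; leaving out a replicate could not be run for the same reason. With equal peak numbers (2083 for H3K27me3, 7396 for H3K4me3), 15 of the 105 calls were lost. H3K27me3 in TKO was then at 7 members. It was in TKO and not WT at 0, in WT and not TKO at 6 and in F1295A and not WT at 1. H3K4me3 in F1295A and not WT was at 1, in WT and not F1295A at 2 and in F1295A and not D1240A at 1. With the stronger 50% of peaks, 31 of the 105 calls were lost. H3K27me3 was at 8, 10, 5 and 4 in TKO, WT, D1240A and F1295A. It was at 0 in TKO and not WT, 5 in WT and not D1240A and 0 in F1295A and not D1240A. H3K4me3 was at 1 in WT and not TKO, 0 in WT and not D1240A and 0 in F1295A and not D1240A. The start alone gave H3K4me3 at 7 in TKO, 10 in WT and 9 in D1240A, at 1 in WT and not D1240A and 1 in F1295A and not WT, and H3K27me3 at 5 in WT and not D1240A and 1 in F1295A and not D1240A, here over 42 members. The whole record gave H3K27me3 at 3 in TKO and not WT and 0 in F1295A and not D1240A, and H3K4me3 at 1 in WT and not F1295A and 1 in D1240A and not F1295A. Without the chromosome 1 segment H3K27me3 was at 5 in WT and not D1240A and 1 in F1295A and not D1240A, and H3K4me3 at 1 in WT and not D1240A and 1 in F1295A and not D1240A. H3K27me3 in F1295A and not D1240A was at 1 with the window of 2.5 kb and at 0 when D1240A had to lack a peak within 10 kb of either end, and KIRREL1 has one near its other end. The cause of these shifts was not tested beyond the smaller number of peaks or genes that each alternative keeps. H3K27me3 stayed at more members in WT than in D1240A or F1295A under all 6 alternatives that give counts per form. All genes had the same order in the main setting (9.57% in WT, 5.36% in D1240A and 5.79% in F1295A) and at the start alone (6.596%, 3.63% and 3.85%). Shares of all genes were not computed for the other alternatives. The equal peak numbers are the lengths of the F1295A list for H3K27me3 and the TKO list for H3K4me3, so those lists could lose no call there.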
